A study of Mus musculus with 11 samples.

Results

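Tumours that grew in Fpr1-/- hosts (KO) were compared with tumours that grew in wild-type hosts (WT), both without drug. All samples labelled Fpr1-/- with PBS were set against all samples labelled wild type with PBS, 3 against 3, which is 6 of the 11 arrays of the study. The study concerns the role of the receptor in chemotherapy, and this comparison shows how the tumours of both hosts differed without drug. The hosts were C57BL/6 mice of 10 to 12 weeks that carried a subcutaneous MCA 205 fibrosarcoma, a tumour line raised in that strain with a chemical carcinogen. PBS, the vehicle of doxorubicin (DX), was the control treatment, and tumours were taken at 2 days. The other 5 arrays were 3 WT tumours and 2 KO tumours at 2 days after 2.9 mg/kg DX given into the tumour. The knockout is that of the host, and the labels name no gene change in the tumour cells, so each sample mixes tumour cells with host cells of the stated genotype. The labels do not say whether WT and KO hosts were littermates, and a difference of genetic background cannot be told apart from that of Fpr1. Nothing in the labels says that replicates came from separate animals, so the tests measure the spread between these samples, which may be technical. The number after MCA in the tumour label goes up by 1 from sample to sample; all tumours were taken as 1 line, and if the lines differed, each difference given here would hold that as well.

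Fpr1 encodes formyl peptide receptor 1, a G protein-coupled receptor on neutrophils, monocytes and dendritic cells. It binds formylated peptides from bacteria and mitochondria and also the N terminus of annexin A1, which dying cells release. Receptor binding directs the movement of myeloid cells. The chemokines Cxcl1 and Cxcl2 act through a different receptor, Cxcr2, and recruit neutrophils, whose granules and cytosol hold calprotectin (S100a8 and S100a9) and lipocalin 2 (Lcn2).

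Each array gave an intensity for 45281 probes, of which 16169 to 18221 (35.7% to 40.2%) were detected. The median intensity was 110 on WT PBS 1 and 118 on KO PBS 2, which shared a BeadChip (chip 2), and 151 to 169 on the other arrays. After background correction and quantile normalization, 10623 genes were tested on the log2 scale, and every value below is a log2 normalized intensity or a log2 difference, KO minus WT, unless a fold is named. Arrays of 1 PBS group correlated at 0.976 to 0.991 and arrays of different PBS groups at 0.979 to 0.990. No probe was named Fpr1, so the deletion itself was not analysed here. WT PBS 3 differed from the other 5 PBS arrays in Eif2s3y, a Y-linked gene, at 8.52 against 4.41 to 4.94. The same gene stood at 8.53 on WT DX 2. Uty, the other Y-linked gene measured, did not follow it: KO minus WT in PBS was -0.022, and -0.095 without these 2 arrays. Xist, the X-linked RNA, was at -0.40, and at -0.65 without them. Its other probes gave -0.55, -0.03 and 0.14 with all arrays, so they differed in sign. What the Eif2s3y signal on these arrays means was not tested. Markers of fibroblasts were present, 14 of 17 on all 6 PBS arrays. In tumour pieces like these, fewer cells of a type and less RNA per cell cannot be told apart.

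One gene, Cxcl1, passed the threshold between KO and WT tumours without drug, and it was higher in KO. Among genes without overlap, those next to it by p on the higher side were S100a8, Il24, S100a9, Arg2, Lcn2, Cxcl2, Gng7, Smco4, Crim1, Il1b and Rasl11a. On the lower side Mmrn1, Tef, Tpsab1 and Itgbl1 are described first. With limma and Benjamini-Hochberg adjustment over all genes, 1 gene rose and 0 fell at an adjusted p under 0.05, which is 0.00941% of those tested. At an unadjusted p under 0.05 there were 582 genes (5.48%, 277 higher and 305 lower), where 531 are expected from chance alone. Adjusted p was under 0.1 for 5 genes, Cxcl1, Mmrn1, S100a8, Il24 and S100a9. In 996 genes (9.38%) the 3 KO arrays did not overlap the 3 WT arrays, with 520 higher and 476 lower. Of 4181 kept probes that carry no single gene symbol, 1 (0.0239%) passed, lower in KO. The median difference of all genes was 3.5e-04 and the median standard error 0.178.

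**Figure D1:**
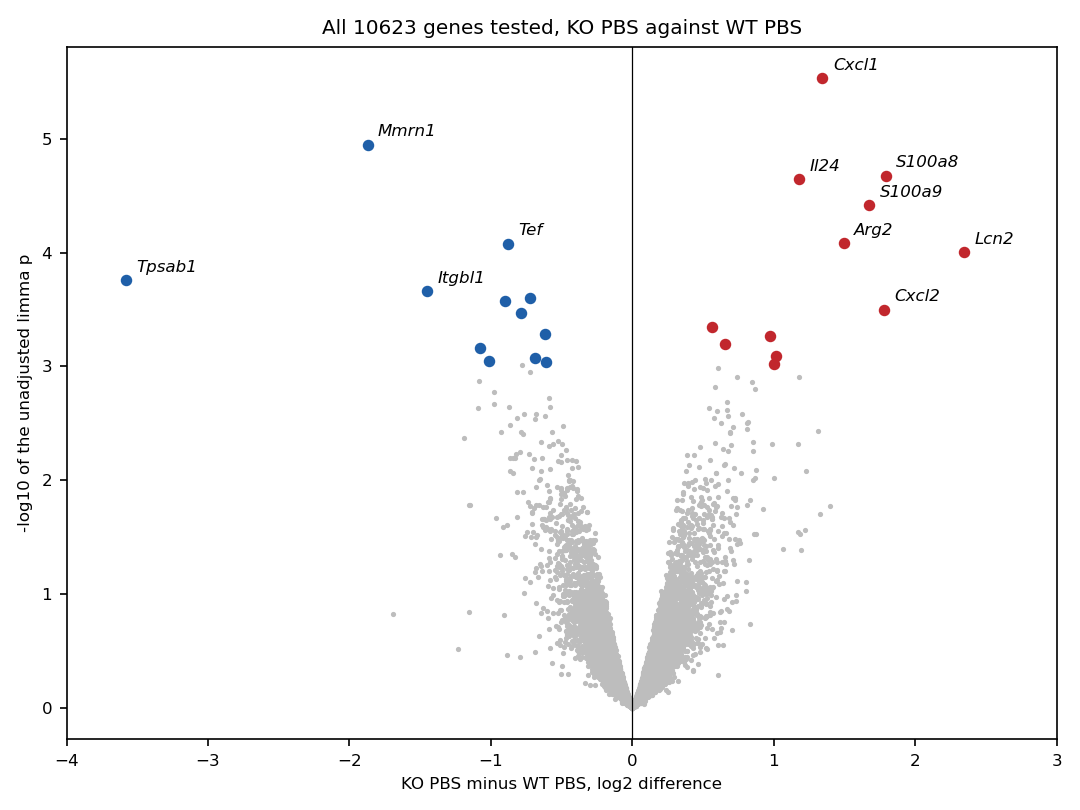
Each point is 1 of 10623 genes, with the log2 difference KO PBS minus WT PBS on the x axis and -log10 of the unadjusted limma p on the y axis. Red and blue points are the 12 higher and 12 lower genes named by the smallest p among genes without overlap. Cxcl1 is the topmost point, Lcn2 lies farthest to the right at 2.35, and Tpsab1 lies farthest to the left.

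Cxcl1, the chemokine that recruits neutrophils through Cxcr2, measured 9.84, 9.53 and 9.40 in WT and 10.95, 10.80 and 11.05 in KO. All KO tumours lay above all WT tumours, and the gap between the groups was wider than the range within either. Cxcl1 rose by 1.34 (SE 0.155, 95% interval 1.00 to 1.69), a 2.54-fold difference with an adjusted p of 0.0312 in limma. Within chip 2 the difference was 0.96 and within chip 5, the other chip with PBS arrays of both genotypes, it was 1.65. The size held between 1.20 and 1.54 in 23 alternative analyses, but the call did not: it was lost in 12 of them, with an adjusted p of 0.213 when the BeadChip was a fixed block, 0.0602 without chip 2 and 0.0813 without the 2 arrays that had Eif2s3y signal. With the BeadChip as a random block the call stayed, at an adjusted p of 0.0264 in limma. Leaving out WT PBS 2 gave 0.213, WT PBS 3 gave 0.0833, KO PBS 1 gave 0.145, KO PBS 2 gave 0.116 and KO PBS 3 gave 0.124.

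Cxcl2, the neighbour of Cxcl1 on chromosome 5 with the same receptor, measured 6.02, 5.69 and 6.30 in WT and 8.10, 7.25 and 7.99 in KO. The groups did not overlap, and KO PBS 2 was the lowest of the KO tumours. The difference of 1.78 (SE 0.346, 3.43-fold) had an adjusted p of 0.256 in limma, and the gene's other probe gave 1.44. Ppbp, a further ligand of Cxcr2, was detected on none of the 6 arrays.

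The promoters of Cxcl1 and Cxcl2 are shown since these chemokine genes lie side by side and both stood higher in KO. The 250 bases before the start site are from RefSeq (GRCm38.p6), Cxcl1 at chr5:90890995-90891244 and Cxcl2 at chr5:90903649-90903898, both on the plus strand. Capitals mark matches to an NF-kB motif, GGGNNTTTC on either strand.
Cxcl1: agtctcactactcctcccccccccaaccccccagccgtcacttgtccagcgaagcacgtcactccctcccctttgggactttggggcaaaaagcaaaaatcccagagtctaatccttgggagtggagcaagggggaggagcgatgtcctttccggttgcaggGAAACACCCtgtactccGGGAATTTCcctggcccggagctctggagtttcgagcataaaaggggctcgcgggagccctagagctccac
Cxcl2: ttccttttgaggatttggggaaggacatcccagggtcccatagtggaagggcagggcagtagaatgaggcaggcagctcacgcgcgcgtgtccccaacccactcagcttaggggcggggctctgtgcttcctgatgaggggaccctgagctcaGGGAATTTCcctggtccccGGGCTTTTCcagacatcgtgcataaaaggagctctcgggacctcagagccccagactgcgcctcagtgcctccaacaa
Each window held 2 matches, at -88 to -80 and -71 to -63 from the start of Cxcl1 and at -97 to -89 and -78 to -70 from that of Cxcl2. Of 32851 promoter windows of the same length, 1223 (3.72%) held at least 1 match. The window of S100a9 held 1, and those of S100a8 and Lcn2 held 0. A C/EBP motif, TTNNGCAA, had 1 match each in the windows of S100a9 and Lcn2 and 0 in that of S100a8, and was in 9.56% of windows. A match describes the letters of the window and is no evidence of binding in these tumours.

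S100a8, a calprotectin subunit that binds calcium and zinc, measured 7.88, 7.09 and 7.57 in WT and 9.36, 9.35 and 9.20 in KO. The KO tumours lay close together, all above the WT tumours. The difference was 1.79 (SE 0.254, 3.46-fold, adjusted p = 0.0604 in limma). S100a9, the partner subunit, measured 7.45, 6.89 and 7.30 in WT and 9.08, 8.56 and 9.03 in KO. Its difference was 1.68 (SE 0.254, adjusted p = 0.0814 in limma), again with no overlap. Lcn2, which binds the iron carriers of bacteria, measured 7.33, 7.52 and 6.61 in WT and 9.41, 9.83 and 9.24 in KO. Of the genes tested it had the largest positive difference, 2.35 (SE 0.396, 5.08-fold), with an adjusted p of 0.131 in limma.

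**Figure D2:**
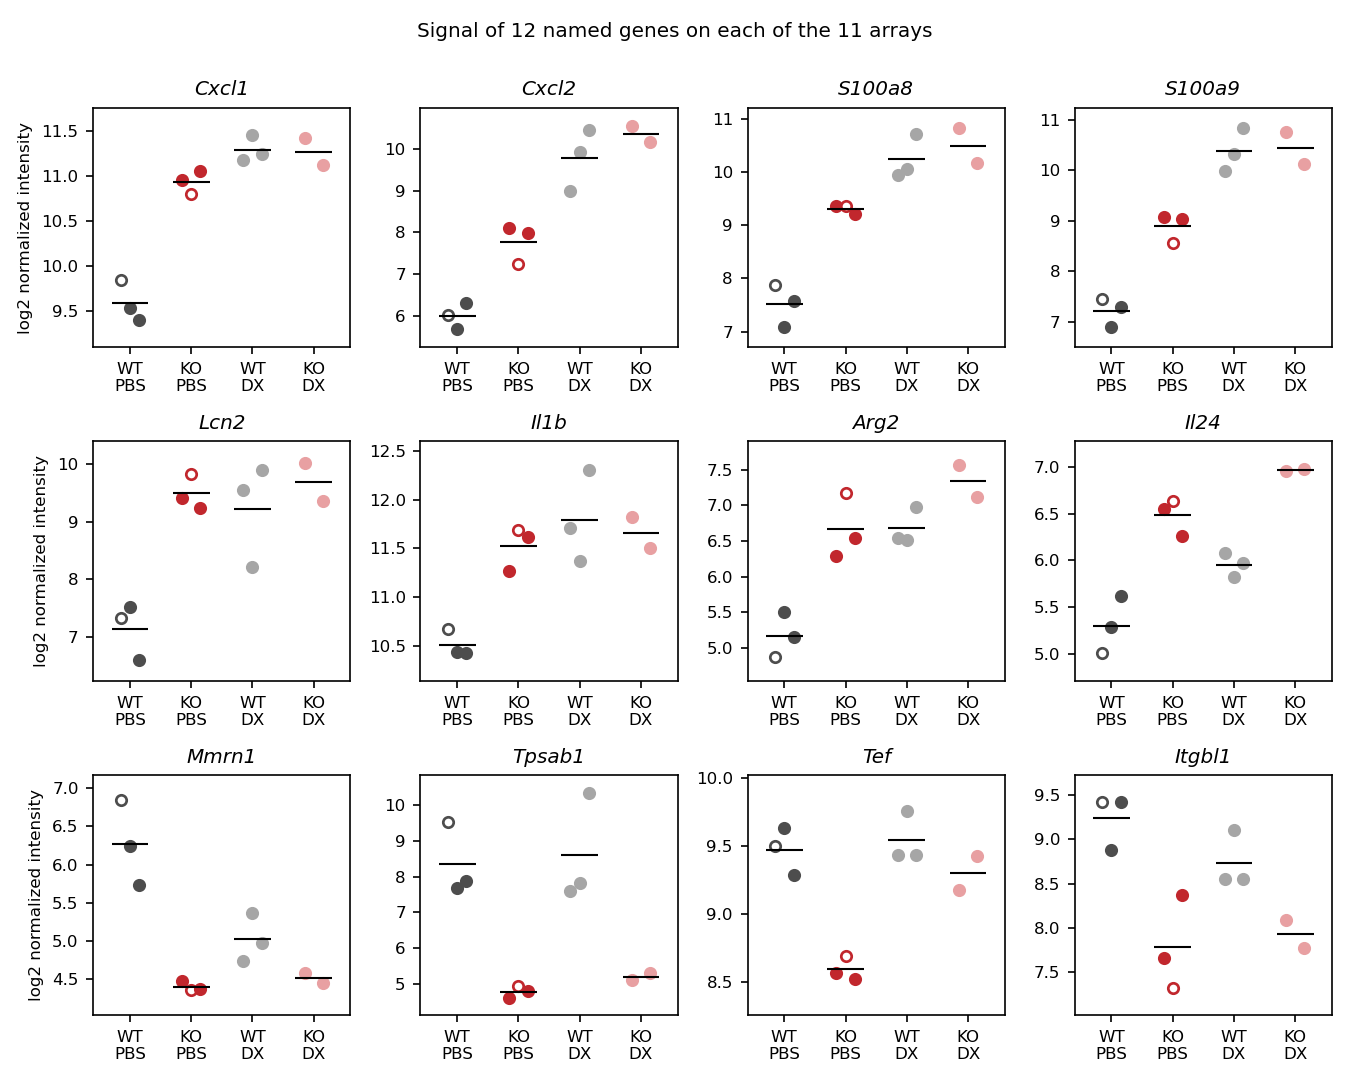
Log2 normalized intensity of 12 named genes on each of the 11 arrays, by group, each point 1 array and each bar a group mean. Open points are the arrays of chip 2, and the y axes differ between panels and do not start at 0. In KO PBS, Cxcl1, S100a8, S100a9, Cxcl2, Lcn2, Il1b, Arg2 and Il24 lie above WT PBS on every array, and Mmrn1, Tpsab1, Tef and Itgbl1 below.

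Further genes of inflammation stood higher in every KO tumour than in every WT tumour. Il1b, the inflammatory cytokine interleukin 1 beta, measured 10.67, 10.43 and 10.43 in WT and 11.26, 11.69 and 11.62 in KO, a difference of 1.01 (SE 0.222, adjusted p = 0.396 in limma). Il24, a cytokine of the interleukin 10 family, measured 5.0, 5.29 and 5.61 in WT and 6.55, 6.64 and 6.26 in KO. It was detected on 1 of the 3 WT arrays and on all 3 KO arrays, and differed by 1.18 (SE 0.169, adjusted p = 0.0604). Arg2, the mitochondrial arginase, measured 4.87, 5.50 and 5.16 in WT, again detected on 1 of 3 arrays, and 6.29, 7.17 and 6.55 in KO. Its difference was 1.50 (SE 0.247, adjusted p = 0.126). Il1a, interleukin 1 alpha, was detected in KO and on no WT array and was at least 1.32-fold higher in KO (adjusted p = 0.819).

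The other 4 higher genes named by p were Gng7, Smco4, Crim1 and Rasl11a, with adjusted p from 0.317 to 0.396. Gng7, a G protein gamma subunit, differed by 0.56, but its second probe gave -0.28. Rasl11a, a Ras-like GTPase, differed by 1.00 and by 0.85 on its other probe. Smco4, a small membrane protein, was at least 1.80-fold higher in KO, with detection on 0 of 3 WT arrays and 3 of 3 KO arrays. Crim1, a transmembrane protein that binds bone morphogenetic proteins, was at least 1.02-fold higher, its WT arrays all below detection.

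Mmrn1, multimerin 1, a carrier of factor V in platelets and endothelium, measured 6.84, 6.25 and 5.73 in WT and 4.48, 4.36 and 4.37 in KO. It was detected in all 3 WT tumours and in no KO tumour, so its size is a bound: at least 1.82-fold lower in KO (adjusted p = 0.0598 in limma). This gene passed the threshold in 7 of the 22 alternatives that kept it, among them that without the 2 arrays with Eif2s3y signal (adjusted p = 0.0115). The stricter detection filter left it out. Of the 20 endothelial genes measured, 14 were higher in KO by sign, where 50.1% of all genes were. Robo4, a vascular guidance receptor, was at 0.36 and Emcn, endomucin, at 0.22, and the median of the list was 0.12, or -0.005 without WT PBS 3.

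Tpsab1, a tryptase of mast cell granules, measured 9.53, 7.70 and 7.88 in WT and 4.62, 4.94 and 4.81 in KO. The probe was above background in all 3 WT tumours and in none of the KO tumours, which puts KO at least 7.76-fold lower (adjusted p = 0.206 in limma). Other mast cell genes were mostly higher in KO by sign. Cpa3, the mast cell carboxypeptidase, stood at 0.43, Cma1 and Mcpt4, chymases, at 0.48 and 0.71, and Kit, the stem cell factor receptor, at 0.35. Hdc, the histamine-forming enzyme, stood at 0.92 with no overlap (adjusted p = 0.852). Tpsb2, the paralogous tryptase, stood at -0.66, also with no overlap, and a probe may read both tryptases. Of the 10 mast cell genes, 8 were higher in KO by sign and 2 lower, where 50.1% of all genes were higher. Without overlap 1 was higher and 2 were lower, against 4.90% and 4.48% of all genes. The median of the list was 0.31. That median was 0.16 without WT PBS 3, 0.19 without KO PBS 2 and 0.56 without WT PBS 1.

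Tef, a bZIP transcription factor whose level follows the circadian clock, measured 9.50, 9.63 and 9.29 in WT and 8.57, 8.70 and 8.52 in KO. It was lower in every KO tumour, by -0.88 (SE 0.146, adjusted p = 0.126 in limma). A list of clock genes and PAR bZIP factors, the family of Tef, was chosen after these values were seen. Of its 10 measured genes 8 stood lower by sign, at a median of -0.29, where 50.1% of all genes stood higher. Since the list was drawn up around Tef, its counts are no separate support for that gene. Dbp, the closest relative of Tef, was at -1.08 and Ciart, a repressor of the clock, at -0.41, both without overlap, while Per1 was at 0.18 and Per2 at -0.20. The labels do not give the hour at which tumours were taken. Itgbl1, an integrin-like secreted protein, measured 9.42, 8.88 and 9.41 in WT and 7.66, 7.32 and 8.38 in KO, a difference of -1.45 (SE 0.269, adjusted p = 0.231).

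Cirbp, the cold-inducible RNA-binding protein, differed by -0.79 (8.19 to 8.39 in WT, 7.46 to 7.59 in KO, adjusted p = 0.256 in limma). Ptbp2, a splicing regulator, differed by -1.08 and was detected on 1 of 3 KO arrays. Avil, advillin, an actin-severing protein, differed by -1.01, Napb, a vesicle fusion protein, by -0.62 and Ntn3, a netrin, by -0.61. Ctnnd2 (delta catenin), Engase (a glycan-trimming enzyme) and Gm15142 were detected on all WT and no KO arrays and were at least 1.27-fold, 1.38-fold and 1.21-fold lower in KO. Adjusted p of these 8 genes ran from 0.235 to 0.396. None of the 24 genes named by p turned its sign in any of the 23 alternative analyses that kept it. The stricter detection filter left out Mmrn1, Crim1, Ctnnd2, Engase and Gm15142. The lack of overlap by which the 24 genes were chosen fixes the sign in part of the alternatives.

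**Figure D3:**
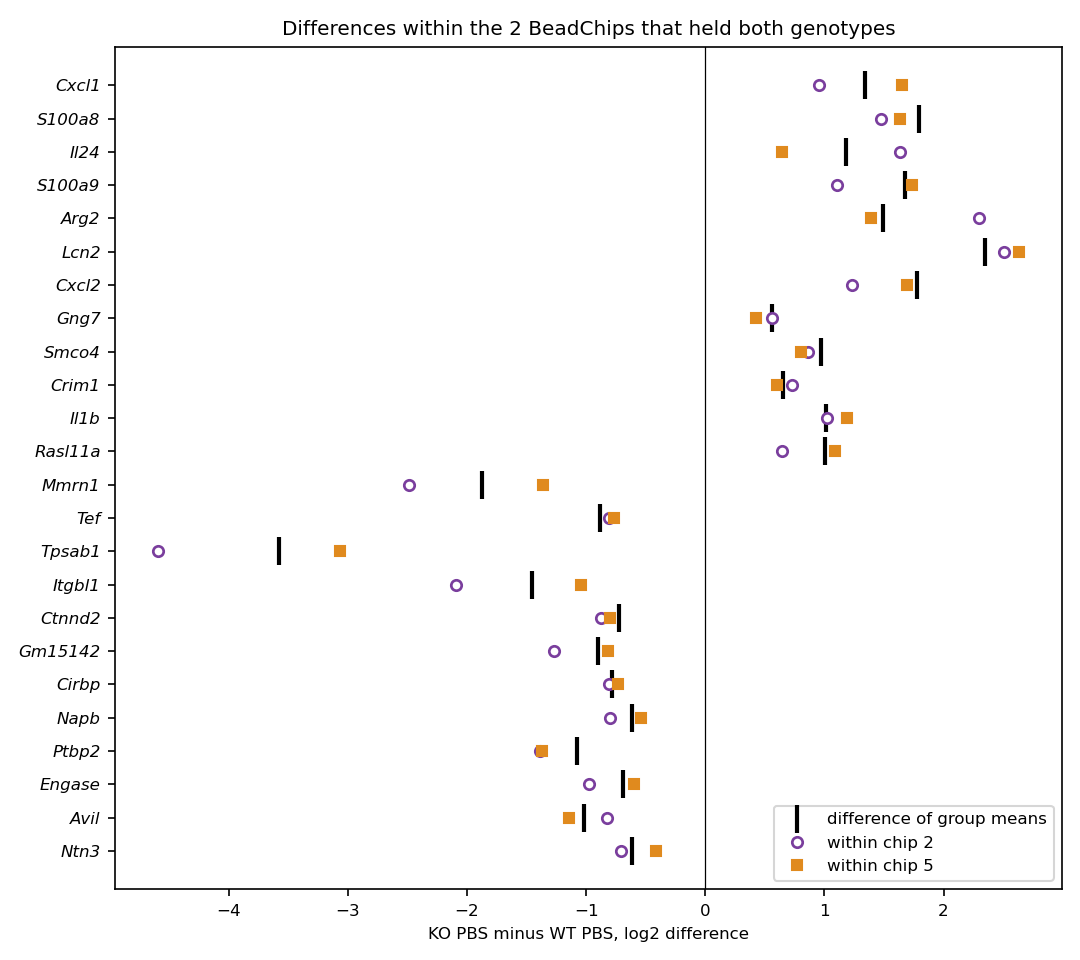
Log2 differences KO PBS minus WT PBS of the 24 genes named by p, as the difference of group means (bars), within chip 2 (open circles, KO PBS 2 minus WT PBS 1) and within chip 5 (squares, KO PBS 3 minus WT PBS 3). Lcn2 lies at 2.50 and 2.63 within the 2 chips and Il24 at 1.63 and 0.64; since the groups of these genes do not overlap, the sign of each within-chip value follows from their choice.

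Gene groups were read by counts beside the share of all genes. The lists were chosen with earlier results of these data known, so their counts are a description and no independent support. With 1 PBS array or chip 2 left out, 223 to 336 of the 10623 genes stood higher at an unadjusted p under 0.05. In the same settings 214 to 437 stood lower at that p. The neutrophil list named 22 genes, of which 8 were not measured, among them Ly6g, Mpo, Elane, Camp and Ngp. Of the 14 measured, 12 stood higher by sign, where 50.1% of all genes did. Higher without overlap were 7 (50%), and higher at an unadjusted p under 0.05 were 6. The shares of all genes in that direction were 4.90% and 2.61%. None of the 14 passed the adjusted threshold. S100a8, S100a9 and Lcn2, already named above by p in this same contrast, are part of these counts. Beside them the genes at that p were Hdc, which is also in the mast cell list, Retnlg at 1.07 (resistin-like gamma), and Clec4d at 0.60 (a C-type lectin receptor). The median was 0.55 against 3.5e-04 for all genes. Cxcr2, the receptor of Cxcl1 on neutrophils, was at 0.54 and Csf3r, the receptor of the growth factor G-CSF, at 0.36. Mmp9 (0.13), Trem1 (0.07), Cd177 (0.05) and Ltf (-0.04), further neutrophil products, lay near 0, and 2 of the 14 genes were detected on no array. The mean of the list over its members, each centred on the 6 arrays, was -0.48 to -0.18 in WT and 0.27 to 0.50 in KO. Without WT PBS 3, 3 genes had an unadjusted p under 0.05 and the median stayed at 0.55; without chip 2, 5 did, at a median of 0.47. The count was also 3 without WT PBS 2 or KO PBS 2.

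**Figure D4:**
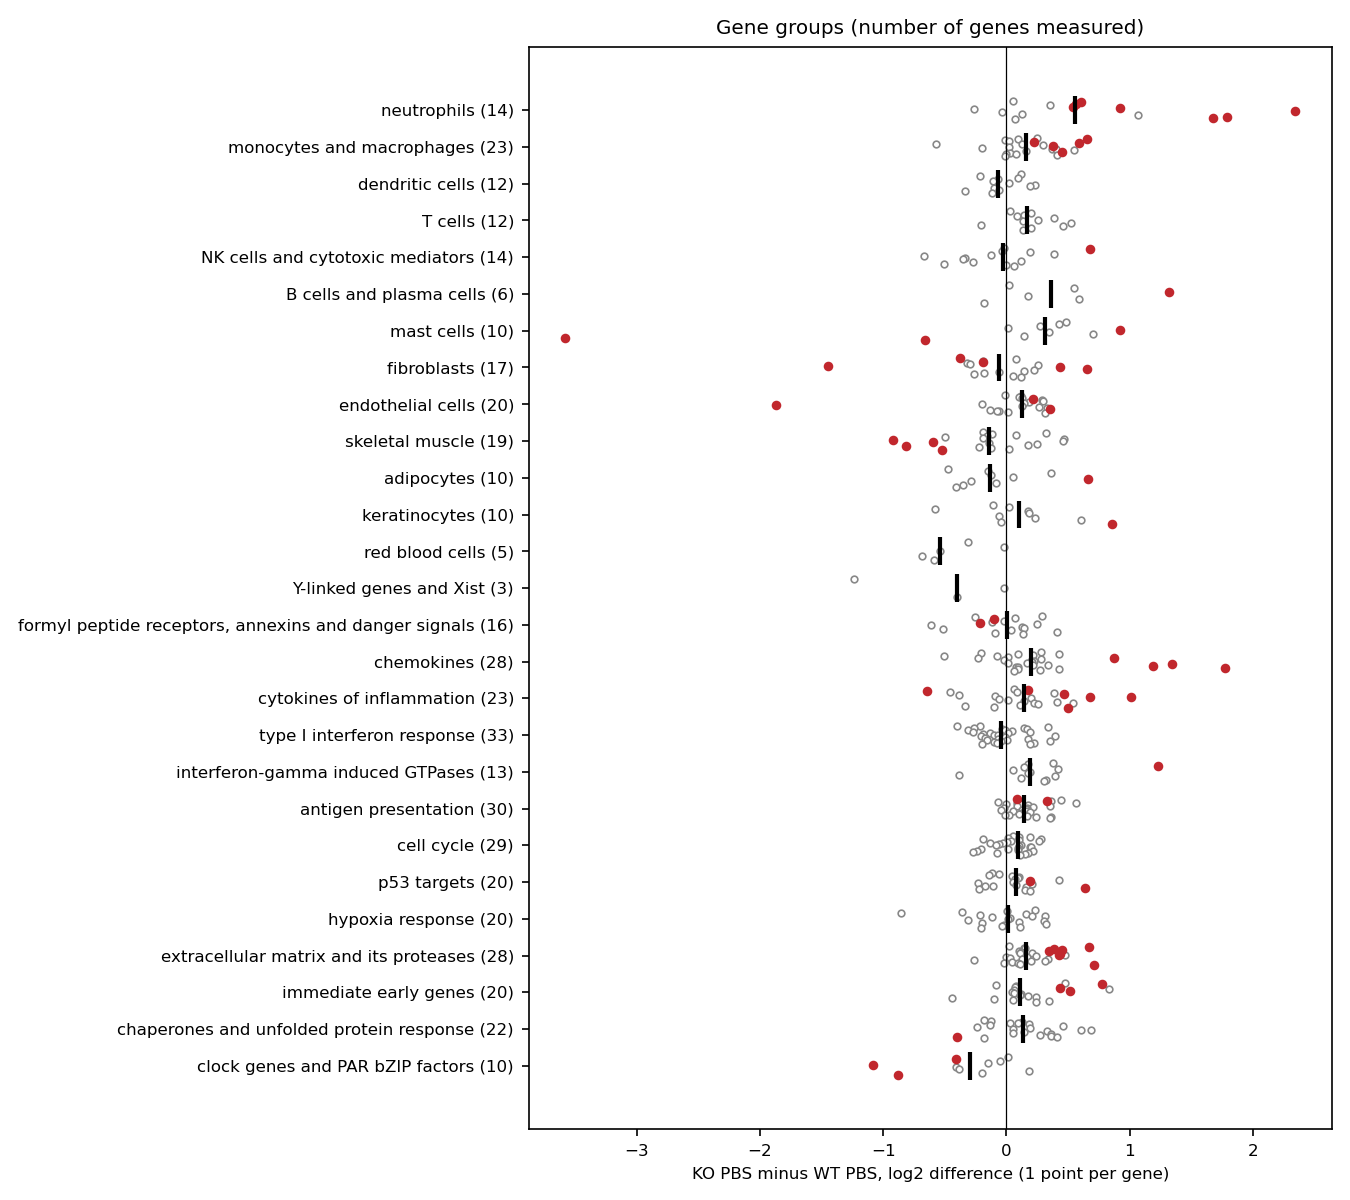
Log2 differences KO PBS minus WT PBS of the measured genes of 27 lists, 1 point per gene, filled red where the 3 KO and 3 WT arrays do not overlap and open otherwise, with the list median as a bar. The neutrophil list has the highest median, 0.55, and the list of clock genes was chosen after values were seen.

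Of 28 chemokines measured, Cxcl1 and Cxcl2 included, 5 stood higher at an unadjusted p under 0.05 and 0 lower, against 2.61% and 2.87% of all genes. The others besides Cxcl1 and Cxcl2 were Ccl3, Cxcl13 and Ccl19. In 4 (4.90% of all genes) KO lay above WT without overlap, and the list median was 0.20, or 0.12 without WT PBS 3. Without chip 2 the count of 5 was 3. Ccl3, a macrophage and neutrophil chemokine, measured 7.48, 6.53 and 7.29 in WT and 8.24, 7.70 and 7.99 in KO (0.87, adjusted p = 0.784 in limma). Cxcl13, which recruits B cells, was at 1.19 and Ccl19, which recruits cells with Ccr7, at 0.43. Ccl2, the monocyte chemokine, was at 0.22 (95% interval -0.28 to 0.71), and Cxcl10, which recruits T cells, at 0.33 (-0.13 to 0.80). The other probe of Cxcl10 gave 0.02. Among 23 inflammatory cytokines, 4 stood higher and 1 lower at an unadjusted p under 0.05, against 2.61% and 2.87% of all genes. Without WT PBS 3 it was 3 higher and 3 lower, and the median fell from 0.14 to 0.07; without KO PBS 3 it was 2 higher and 1 lower. Tnf was at 0.50 and Ltb, lymphotoxin beta, at 0.54. The lower one was Csf3, which encodes G-CSF, the growth factor of neutrophils: detected in WT on 3 arrays and in KO on 0, it was at least 1.15-fold lower in KO.

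Monocyte and macrophage genes had 2 of 23 higher at an unadjusted p under 0.05 and 5 without overlap, against 2.61% and 4.90% of all genes, at a median of 0.16. The first count was 5 without WT PBS 1, 4 without KO PBS 1, 3 without WT PBS 2 and 1 without WT PBS 3, where the median was 0.27. Ccr2, the receptor of Ccl2, measured 5.67, 6.19 and 6.27 in WT and 6.57, 6.82 and 6.52 in KO (0.59, adjusted p = 0.791 in limma). Lyz2, lysozyme, was at 0.45, and Arg1, the cytosolic arginase, at 0.65, with WT at 11.41 to 12.37 and KO at 12.49 to 12.56. Other probes of Lyz2 gave 0.18 and 0.02, and that of Arg1 gave 0.91. Cd163, a scavenger receptor of resident macrophages, was at -0.57. Dendritic cell genes had 0 of 12 at an unadjusted p under 0.05 and a median of -0.06; Itgax, CD11c, was at -0.06 (95% interval -0.63 to 0.51).

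Lymphocyte lists differed in their counts, where 5.48% of all genes had an unadjusted p under 0.05. Of 12 T cell genes 0 had an unadjusted p under 0.05, and Cd3e, a chain of the T cell receptor complex, ran from 7.47 to 8.76 in WT and from 7.58 to 8.76 in KO. Ctla4, an inhibitory receptor, was at 0.52 and Foxp3, the regulator of suppressor T cells, at -0.21. Other probes of Foxp3 gave 0.22 and -0.30. Of 14 NK cell genes only Clec2d, a ligand of an NK receptor, had an unadjusted p under 0.05, at 0.68 (adjusted p = 0.589 in limma), and Prf1, perforin, was at -0.50. Ifng, interferon gamma, was at 0.39 (95% interval -0.51 to 1.29). Of 6 B cell genes, 2 stood higher at an unadjusted p under 0.05 (2.61% of all genes), Cd79b and Cd22. Cd22, an inhibitory receptor of B cells, was at 0.55, detected on 0 WT and 2 KO arrays. Cd79b, a chain of the B cell receptor complex, was at 1.32, with KO PBS 2 at 8.03 against 6.37 and 6.52 in the other KO tumours. Without chip 2, which holds that tumour, the B cell list had 1 gene higher and 1 lower at that p and a median of -0.06 in place of 0.36. Without KO PBS 1 it was 3 higher, and without KO PBS 2 it was again 1 higher and 1 lower. Without WT PBS 1, WT PBS 3 or KO PBS 3 it was 1 higher.

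The interferon and antigen presentation lists depended on which arrays were in the fit. Of 33 type I interferon genes 0 had an unadjusted p under 0.05 (5.48% of all genes), with a median of -0.04. Of 13 GTPases induced by interferon gamma it was 1, Gbp2b, at 1.23, where KO PBS 2 at 6.37 lay just above the highest WT tumour at 6.30. Of 30 antigen presentation genes 25 stood higher by sign, where 50.1% of all genes did, but 0 had an unadjusted p under 0.05, and the median was 0.15. Without WT PBS 3, 8 of the 33 type I interferon genes stood lower at an unadjusted p under 0.05 and 14 lower without overlap. Of all 10623 genes, 313 and 928 did so in that setting. Without chip 2, 8 of the 13 GTPases stood higher at that p, at a median of 0.56, as did 6 of the 30 antigen presentation genes, at 0.21. Of all 10623 genes, 265 did. Without WT PBS 1 alone it was 2 GTPases, 5 antigen presentation genes and 2 type I interferon genes, all higher, against 327 of all genes. Without WT PBS 2 it was 2 type I interferon genes, also higher, against 336 of all genes. The GTPase median was -0.41 within chip 2 and 0.80 within chip 5. WT PBS 3 was low in these lists. The means of the type I interferon, GTPase and antigen presentation lists were -0.42, -0.61 and -0.26 there, and without the 2 arrays with Eif2s3y signal their medians were -0.27, 0.01 and 0.03.

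Matrix genes and immediate early genes held several higher members. Of 28 genes of the extracellular matrix and its proteases, 25 stood higher by sign, 7 without overlap and 6 at an unadjusted p under 0.05, against 50.1%, 4.90% and 2.61% of all genes in that direction. Col1a1, a chain of type I collagen, measured 11.90, 12.08 and 12.18 in WT and 12.96, 12.76 and 12.45 in KO (0.67, SE 0.168, adjusted p = 0.587 in limma). Tnc, the matrix protein tenascin C, was at 0.71, Fbln2, fibulin 2, at 0.44, and the basement membrane collagens Col4a1 and Col4a2 at 0.39 and 0.45. Other probes of Tnc gave 0.13, 0.62 and 0.48. Col1a2, the partner chain of Col1a1, was at only 0.15. Without WT PBS 3, 3 of these had an unadjusted p under 0.05, at a median of 0.05 in place of 0.16, and without WT PBS 2 it was 8, at 0.35. Of 20 immediate early genes, 5 stood higher and 1 lower at an unadjusted p under 0.05, against 2.61% and 2.87% of all genes. Without WT PBS 3 it was 3 higher and 0 lower. Ccn1, a matricellular protein induced by growth factors, was at 0.78, Egr2, a zinc finger factor, at 0.83, Fos at 0.51, Atf3 at 0.47, Egr1 at 0.44 and Klf4 at -0.44.

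Tumour programmes had few genes at an unadjusted p under 0.05, which 5.48% of all genes had (2.61% higher, 2.87% lower). The p53, hypoxia and chaperone lists lay near that share, at 5%, 5% and 4.55%. Of 29 cell cycle genes 0 had an unadjusted p under 0.05, with a median of 0.09; without chip 2 there were 2 lower, at a median of -0.06, as there were without WT PBS 1, at -0.01. Of 20 p53 targets it was 1, Sesn2, a stress sensor, at 0.64 (2 without chip 2, WT PBS 1, WT PBS 3 or KO PBS 3), and Cdkn1a, which halts the cell cycle, was at -0.14 (95% interval -0.49 to 0.21). Of 20 hypoxia genes it was 1, Car9, a carbonic anhydrase, at -0.85 (without chip 2 the list had 1 gene higher and 0 lower), with -2.25 within chip 2 and 0.23 within chip 5. Of 22 chaperone and unfolded protein response genes it was 1, Trib3, a pseudokinase, at -0.40 on its main probe and -0.39 and -0.04 on the others. This list gave 5 higher and 0 lower without WT PBS 2, 3 higher and 2 lower without chip 2, 2 higher and 3 lower without WT PBS 1, and 2 and 2 without KO PBS 2. Genes of neighbouring tissue were uneven. Of 19 skeletal muscle genes 3 stood lower at an unadjusted p under 0.05, against 2.87% of all genes. They were Tcap (-0.82), Myh1 (-0.92) and Myl1 (-0.60), and the list median was -0.14. These counts depended on the arrays and the probe: without chip 2 there were 0 lower at a median of 0.08, without WT PBS 1 there was 1 lower at 0.06, and without KO PBS 2 or KO PBS 3 there was also 1. Other probes of Myl1 gave 0.11 and 0.01, and that of Tcap gave -0.06. All 5 red blood cell genes were lower by sign at a median of -0.54, with WT PBS 3 the highest array in the mean of the list, at 1.08 above average, and the median was -0.03 without the 2 arrays with Eif2s3y signal. The part of muscle and blood in the results was not tested.

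Among the receptor's relatives and ligands, Fpr2, the formyl peptide receptor encoded next to Fpr1, measured 10.67, 10.25 and 10.14 in WT and 10.43, 10.35 and 10.72 in KO, a difference of 0.15 (95% interval -0.46 to 0.76). Anxa1, the ligand annexin A1, measured 11.18, 11.36 and 11.22 in WT and 11.40, 10.62 and 10.96 in KO, a difference of -0.26 (-0.68 to 0.17). The groups overlapped for both genes, and both intervals include 0. Of 16 genes of formyl peptide receptors, annexins and danger signals, 0 were higher and 2 lower at an unadjusted p under 0.05. The shares of all genes were 2.61% and 2.87%. It was 2 higher and 1 lower without WT PBS 3, and 1 higher and 0 lower without chip 2 or WT PBS 1. With all arrays the 2 lower genes were Anxa7, at -0.61, and Hmgb1, a nuclear protein that dying cells release. Hmgb1 was detected on no KO array and was at least 1.03-fold lower there.

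Genes beside Fpr1 on chromosome 17 were read apart, since breeding a targeted allele carries its flanking genes along. Of the 100 annotated genes on each side, 19 in all were measured. None passed, 2 had an unadjusted p under 0.05 (5.48% of all genes), and the median difference was -0.096. Has1, a hyaluronan synthase 2 genes away, measured 7.25, 7.01 and 7.27 in WT and 6.12, 6.51 and 5.63 in KO, a difference of -1.09 (SE 0.277, adjusted p = 0.587 in limma). In DX tumours Has1 was at -0.98, and all 5 KO arrays lay below all 6 WT arrays. The other was Tcte3, a dynein light chain gene, at -0.45. Of the 24 genes named by p, Tpsab1, Ntn3 and Crim1 also lie on chromosome 17, the former pair lower and Crim1 higher in KO. Of 551 genes tested on that chromosome, 6 (1.09%) had no overlap between all KO and all WT arrays, against 0.800% of all genes tested.

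DX tumours, which share no array with the PBS tumours, were read for the same differences with drug. Both KO DX arrays were on chip 4, and the WT DX arrays were on chips 1, 3 and 5. Among the DX arrays, a difference between chips therefore cannot be told apart from that of genotype. The same limit holds for the interaction, which was fitted without a chip term. In the DX contrast 0 genes passed in limma: the smallest adjusted p was 0.0509, and 712 genes (6.70%) had an unadjusted p under 0.05. Of the 24 genes named by p in PBS, 18 had the same sign in DX, where 53.5% of all genes did. For 9 of the 24 the DX difference had that sign and an unadjusted p under 0.05, against 4.02% of all genes. The spread of a gene was estimated once for both contrasts, so a small p in PBS also favours one in DX. In 9 of the 24, all 5 KO arrays lay apart from all 6 WT arrays, against 85 (0.800%) of all genes, a count that the choice of genes without overlap in PBS raises. These were Il24, Gng7, Rasl11a, Mmrn1, Tpsab1, Itgbl1, Ctnnd2, Cirbp and Ntn3.

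**Figure D5:**
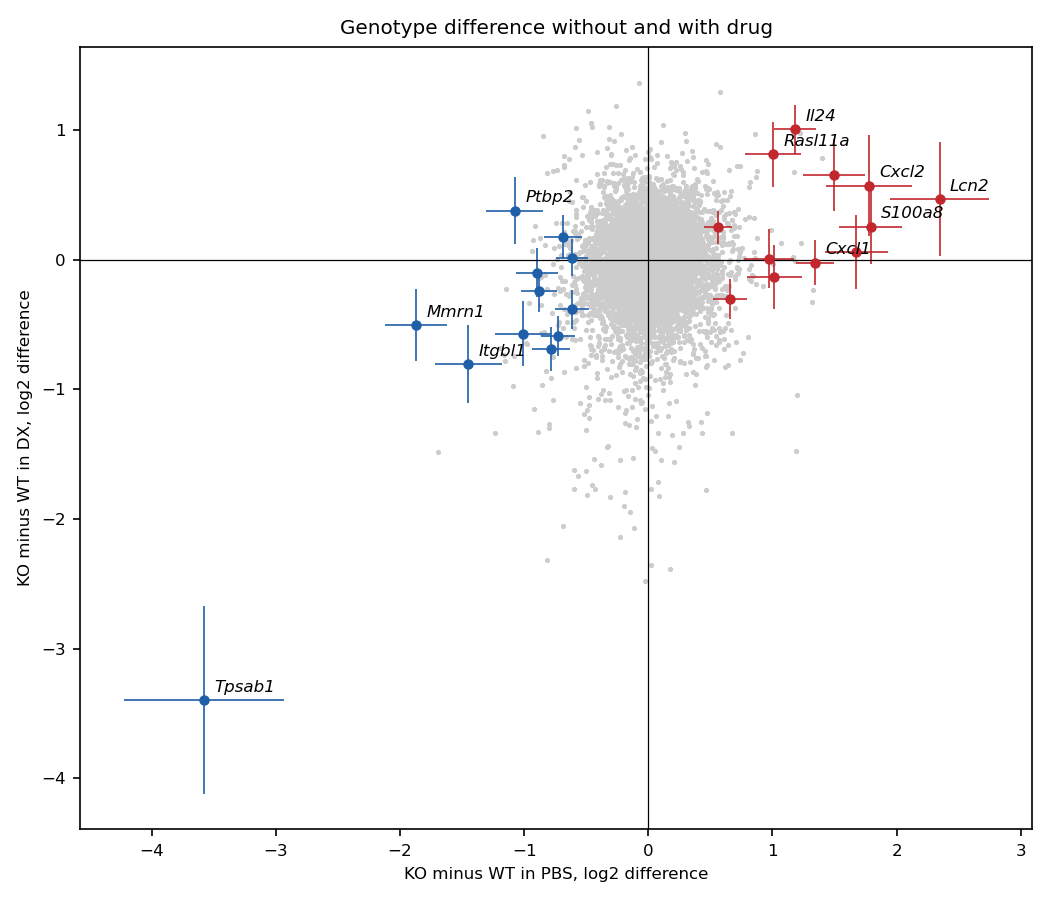
Log2 difference KO minus WT in PBS (x axis) against that in DX (y axis) for all genes (grey) and for the 24 genes named by p (red higher, blue lower, bars 1 SE). Tpsab1, Il24 and Itgbl1 differ in both, while Cxcl1 lies at 1.34 in PBS and -0.02 in DX.

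Cxcl1, Cxcl2, S100a8, S100a9, Lcn2 and Il1b were not among the genes whose KO and WT arrays lay apart in both treatments. Cxcl1 measured 11.17, 11.45 and 11.24 in WT and 11.42 and 11.12 in KO after DX, a difference of -0.02 (SE 0.173). Its KO PBS values, 10.80 to 11.05, lay below all of these and above all WT PBS values. S100a8 differed by 0.26 in DX, S100a9 by 0.06, Lcn2 by 0.47, Cxcl2 by 0.57 and Il1b by -0.13, and the neutrophil median was 0.15. Whether the genotype difference itself changed with drug was tested as an interaction, and 0 genes passed: the smallest adjusted p was 0.110, and 498 genes had an unadjusted p under 0.05. Il24 in DX measured 6.08, 5.82 and 5.97 in WT and 6.95 and 6.97 in KO, at 1.01 (SE 0.189, adjusted p = 0.165 in limma). The tryptase probe measured 7.60, 7.84 and 10.35 in WT DX and 5.10 and 5.30 in KO DX, again undetected in KO. Cirbp was at -0.69 and Rasl11a at 0.82. The muscle list, at a median of -0.14 in PBS, was at -1.77 in DX.

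Some genes varied widely between tumours of 1 group. By the pooled spread within the PBS groups the order began with Gzmg, Eif2s3y, Gzmd, Retnla and Gzme. Gzmg, Gzmd and Gzme are granzymes, killing proteases of cytotoxic cells. Gzmd measured 12.62, 11.88 and 8.83 in WT and 8.98, 11.30 and 10.39 in KO. WT PBS 3 and KO PBS 1 were low for all 3 granzymes and WT PBS 1 and WT PBS 2 high, and near-identical granzyme genes may share probes. Retnla, a marker of alternatively activated macrophages, ran from 5.77 in WT PBS 3 to 9.58 in WT PBS 2, and Cd209f, a C-type lectin gene, was lowest in WT PBS 3 as well, at 7.35. Ctsg, cathepsin G, was highest in WT PBS 1, at 8.14, and Lor, loricrin of the skin barrier, was detected in KO PBS 2 alone among the PBS tumours, at 6.96. Apoc1 and Omd completed the list with Eif2s3y.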

How the data were processed

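RNA of 11 tumours was read on mouse bead arrays, 3 per group and 2 for KO DX. Per the file headers, the deposited intensities are not normalized and stand beside a detection p-value per probe. The authors also deposited a table of log2 values for 19215 probes. The submitters' processing notes name Partek; what it did is not given in the sources used here. In that table the columns of WT PBS 2 and WT DX 2 equal the mean of replicates 1 and 3 of their group (within 7.0e-05), so it served only as an alternative.

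In limma 3.58.1 (R 4.3.3), neqc took the background from the detection p-values, with an offset of 16, followed by quantile normalization and log2. The filter kept 20433 probes whose detection p was below 0.05 on 2 or more arrays. They were named through the supplied annotation, and 1 probe, the brightest, stood for each of 10623 genes. The 4181 kept probes that carry no single symbol had a fit of their own. The fit gave each of the 4 groups a mean over the 11 arrays (7 residual and 4.04 prior degrees of freedom), with eBayes and Benjamini-Hochberg adjustment at 0.05. P-values are from it, except those of the probes without a single symbol and of the alternative analyses. The alternatives, among them those without named arrays, were fitted anew with limma. "At least" folds set the lowest detected signal of each array in place of a group in which no probe of the gene was detected. The number of arrays limits the precision.

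Members and lists were chosen with earlier results of these data known. Named were the 12 genes per direction with the smallest p among those without overlap, those past the threshold first, 3 genes by p of each of 26 lists, a fixed set, the 10 most variable genes and 5 neighbours of Fpr1 by p. Only some of them are described. Same-numbered samples of the PBS groups did not deviate together (correlations -0.15, -0.29 and 0.021), so numbers were not taken to pair samples. The PBS pair on chip 2 correlated at 0.27 and that on chip 5, both numbered 3, at 0.021. The procedure was tested on simulated data.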

Additional observations from a re-analysis of the deposited data

Results flagged for a closer look

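Among the 4181 kept probes without a single gene symbol, 1 passed in KO PBS against WT PBS (0.0239%), with 176 at an unadjusted p under 0.05. Probe ILMN_1214408 measured 12.58, 12.44 and 12.29 in WT and 9.74, 9.52 and 9.73 in KO, and was detected in every PBS tumour. It fell by 2.77 (SE 0.280, 6.84-fold, adjusted p = 7.5e-04 over these probes in limma), and in the DX tumours it was at -2.73 (adjusted p = 0.00324). It is flagged as a signal in data that the comparisons of named genes do not use, and its gene is not named in the annotation used here.

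For 6 genes, all of them from the 116 named genes, all KO tumours lay on one side of all WT tumours in PBS and on the other in DX. How many of the 10623 genes tested did so is not given here, so the 6 are neither a full set nor known to be rare. The difference of differences (DX minus PBS of KO minus WT) was -1.64 for Cd79b (B cell receptor chain, adjusted p = 0.852), -2.01 for Clec2d (adjusted p = 0.110), -0.96 for Crim1 (adjusted p = 0.639), -0.34 for Gadd45a (a DNA damage response gene, adjusted p = 0.992), 1.46 for Ptbp2 (adjusted p = 0.639) and -1.12 for Sesn2 (adjusted p = 0.639), all by the interaction in limma. None passed. No chip held DX arrays of both genotypes, so the DX side of these values cannot be told apart from a difference between chips. KO PBS 2 was the highest tumour for Cd79b, at 8.03, and in the mean of the B cell list, at 0.85 above average.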

How the results depend on the processing

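The 1 gene called between KO and WT in PBS became 3 without background correction and 3 with median scaling, 2 with the BeadChip as a random block, and 4 with trend and robust eBayes. It became 0 with only the 6 PBS arrays in the fit, 0 with only these in normalization, filter and fit, 0 with the BeadChip as a fixed block (1001 genes at an unadjusted p under 0.05), and 0 without chip 2, chosen after seeing the data. Leaving out 1 PBS array gave 0 to 1: Cxcl1 without WT PBS 1, Mmrn1 without WT PBS 3 and 0 without any other. Without the 2 arrays with Eif2s3y signal, also added later, the 1 gene was Mmrn1. The replicate block gave 0 genes (smallest adjusted p 0.0680), and its numbers did not pair samples. The authors' deposited log2 table gave 2601 genes (1151 higher, 1450 lower) and, without its 2 averaged columns, an added setting, 433 (184 higher, 249 lower). In KO PBS the spread within the group was smaller in that table, with a median SD of 0.0724 against 0.109 in quantile-normalized intensities. In KO DX it was nearly the same, 0.0658 against 0.0671.

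The 0 genes of the DX contrast became 10 without background correction, 3 with median scaling, 6013 in the authors' deposited table, 3 with the stricter filter, 5 with the replicate block, 136 with array weights and 9 with trend and robust eBayes. The cause of these changes was not tested. Of the values of named genes recomputed, 12 lost a call (all Cxcl1), 111 gained one, 100 of these in the authors' table, and the other 2526 changed no call. Of 116 named genes, 16, none of them called with all arrays, had the opposite sign in 1 or more alternatives, among them Ccl2, Itgax, Cd3e, Cdkn1a, Gzmd and Retnla. Of list medians, 32 moved by more than the spread between tumours and 566 did not. Signal near background limits Mmrn1, Tpsab1 and other genes undetected in 1 group to bounds.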
